A study of Mus musculus with 6 samples.

Results

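The 35 genes described here carry pyruvate into mitochondria and through the tricarboxylic acid (TCA) cycle: the pyruvate carrier, the pyruvate dehydrogenase complex with its kinases and phosphatases, the enzymes of the cycle, and those that feed it from pyruvate, malate, phosphoenolpyruvate or glutamate. They were taken by symbol from the 22535 gene rows of the series, each symbol matched 1 row, and 34 of them passed a filter of a mean of at least 1 CPM (read counts scaled to a common library total) over the libraries. Polyadenylated RNA was sequenced from B16-BL6, a mouse melanoma line derived from B16 for its invasiveness, with a control guide RNA (sgControl, n = 3 libraries) or with a guide against Ndufs4 (sgNDUFS4, n = 3 libraries). Both groups were kept in DMEM with 10% FBS, 1 mM sodium pyruvate and penicillin-streptomycin, so that pyruvate was supplied to both. The labels do not say whether either line is a clone or a pool, nor whether the replicates are separate cultures, so every p-value sets the groups against variation among libraries that may be technical only.

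Ndufs4 encodes a subunit of respiratory complex I, which takes electrons from NADH. Its mRNA was at 54.3, 55.0 and 52.4 CPM in sgControl and at 14.99, 15.98 and 16.84 CPM in sgNDUFS4 (log2 fold change -1.73, SE 0.0764, limma adjusted p = 5.9e-16). The libraries held between 20090607 and 25947374 reads. The melanocyte markers Mitf, Sox10, Dct, Tyrp1, Pmel, Mlana and Slc45a2 summed to between 15927 and 16437 CPM in sgControl and between 14997 and 16069 CPM in sgNDUFS4. Summed markers of leukocytes, endothelium, fibroblasts and epithelium lay between 0 and 14.1 CPM in every library, with Cd3e, Dcn, Lum and all 4 endothelial markers (Pecam1, Cdh5, Kdr and Tek) at 0. Of 11063 genes tested, 52.0% passed an adjusted p of 0.05 (31.8% higher and 20.3% lower in sgNDUFS4). Of all calls 61.1% were higher as deposited and 49.2% after TMM scaling (a library scaling robust to strongly changed genes), and the median log2 fold change over all genes tested was 0.06 and 0.00 in turn.

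Pyruvate made by glycolysis enters mitochondria through the Mpc1 and Mpc2 carrier, and the pyruvate dehydrogenase complex turns it into acetyl-CoA, which joins oxaloacetate to make citrate. The cycle then oxidises citrate back to oxaloacetate and hands its electrons to NAD+ and to succinate dehydrogenase. Kinases (Pdk) switch the complex off by phosphorylating its Pdha1 subunit, phosphatases (Pdp) switch it on again, and anaplerotic enzymes refill the cycle when intermediates leave it.

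No common direction ran through the genes. Of the 34 tested, 10 were called higher in sgNDUFS4, 9 were called lower and 15 did not pass (limma on log2(CPM + 0.5), two-sided, Benjamini-Hochberg adjustment over all genes tested, adjusted p under 0.05). The 19 calls are 55.9% of these genes, near the 52.0% among all genes tested. Their median log2 fold change was 0.04 against 0.06 for all genes tested, and it was -0.02 after TMM scaling, where 8 were higher and 10 lower. For 23 of the 34 genes no sgNDUFS4 library fell within the sgControl range, 14 above it and 9 below, against a background of 57.2% of all genes tested (35.0% above and 22.2% below). A log2 fold change of at least 0.3 in size with a call was reached by 8 genes, 23.5% of those tested, against 30.6% of all genes tested. These were Mpc1 and Pdk1 on the higher side and Mpc2, Pdk3, Me1, Cs, Aco1 and Idh3g on the lower side. The summed CPM of all 35 genes was 4448, 4443 and 4583 in sgControl and 4333, 4352 and 4432 in sgNDUFS4, lower in each sgNDUFS4 library than in any sgControl library.

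**Figure D1:**
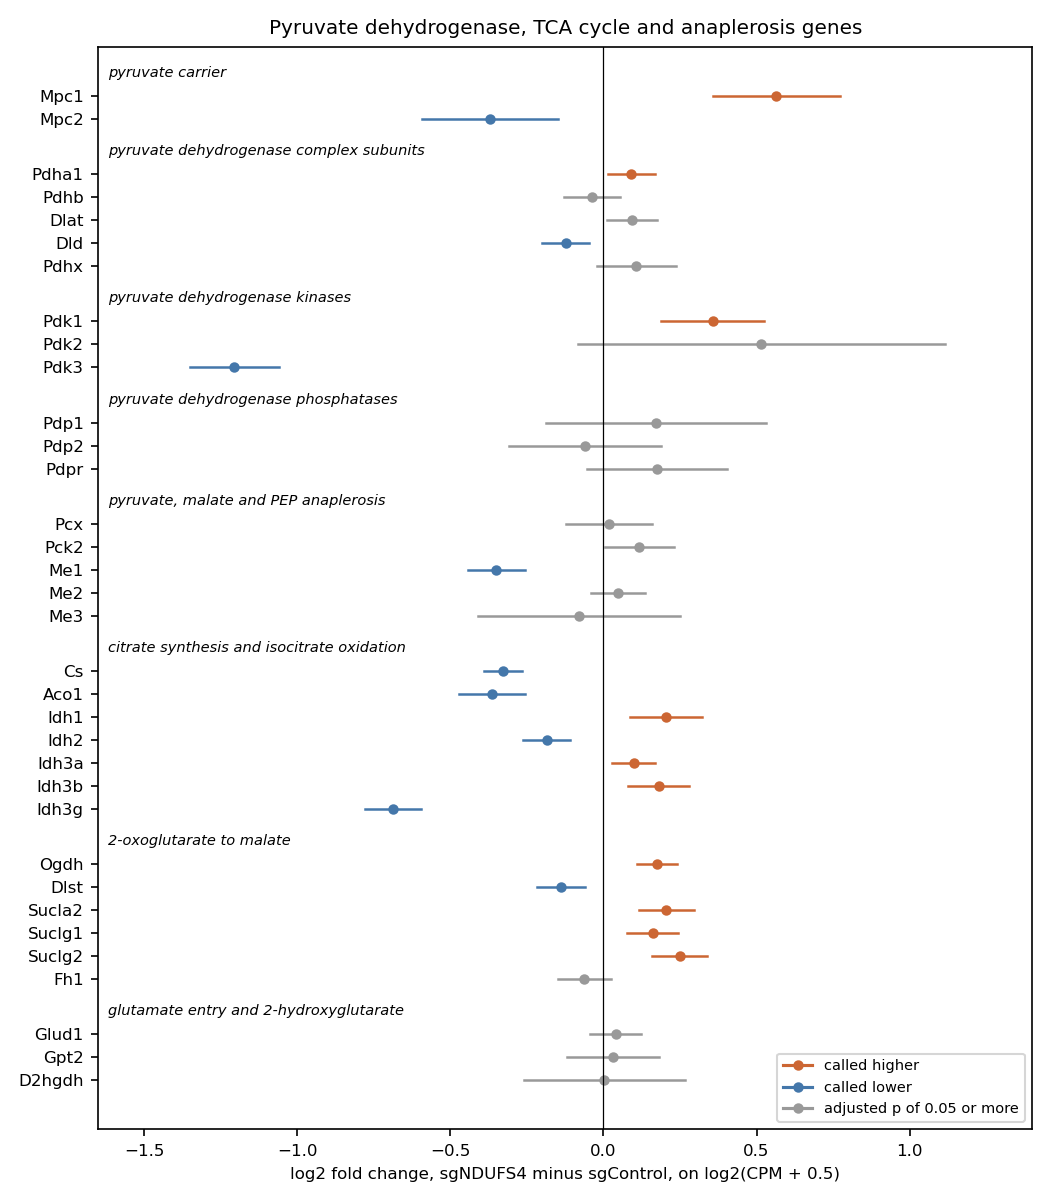
Log2 fold change (points) with its 95% confidence interval (lines) for the 34 genes tested, grouped by role, with calls higher in sgNDUFS4 in orange, calls lower in blue and other genes in grey. Pdk3 lies farthest from 0, at -1.21, and the highest call is Mpc1, at 0.56.

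**Figure D2:**
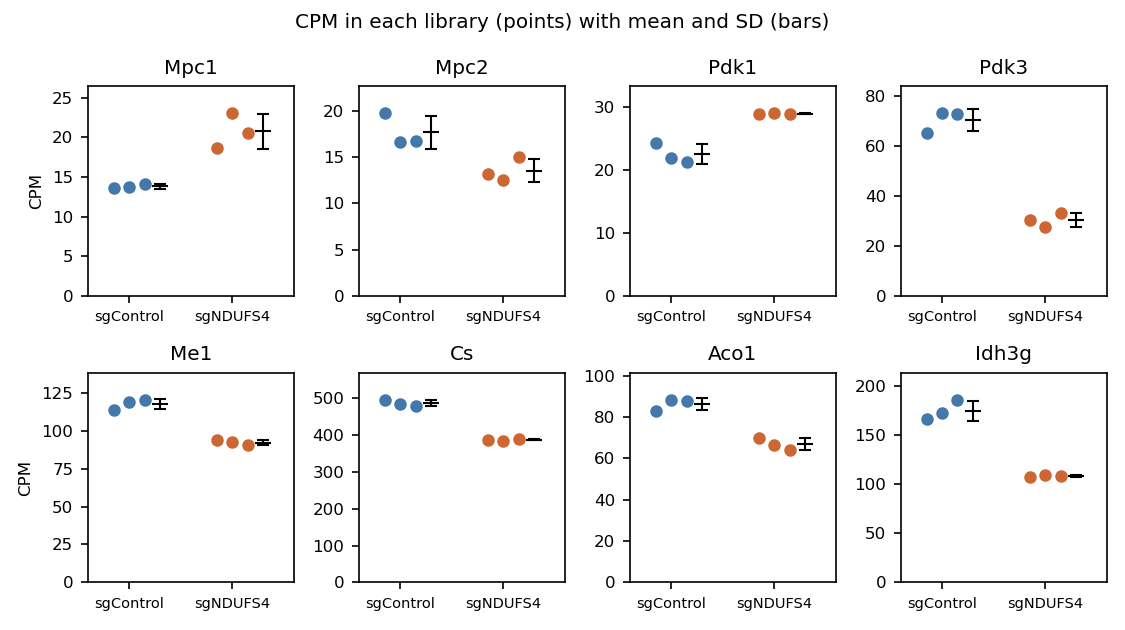
CPM in each library (points) with the mean and SD of each group of 3 (bars), for the 8 genes called with a log2 fold change of at least 0.3 in size, each on a linear axis from 0. In all 8 panels the sgControl and sgNDUFS4 points do not overlap.

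The pyruvate carrier is a heteromer of 2 proteins, and its mRNAs moved in opposite directions. Mpc1 (ENSMUSG00000023861.17, chromosome 17, 8282904 to 8297661, GRCm38) was at 13.6, 13.7 and 14.2 CPM in sgControl and at 18.7, 23.0 and 20.6 CPM in sgNDUFS4. Every sgNDUFS4 library was above every sgControl library, and the log2 fold change was 0.56 (standard error, SE, 0.101, limma adjusted p = 4.3e-05). Mpc2 (ENSMUSG00000026568.6, chromosome 1, 165460637 to 165481214) was at 19.7, 16.6 and 16.7 CPM in sgControl and at 13.2, 12.5 and 15.0 CPM in sgNDUFS4. It fell by 0.37 on the log2 scale (SE 0.108, limma adjusted p = 0.0055), again without overlap. The log2 ratio of Mpc2 to Mpc1 within a library, which does not depend on library scaling, was 0.34 ± 0.159 in sgControl and -0.60 ± 0.228 in sgNDUFS4 (SD, n = 3 each). Per kb of exon, Mpc1 was the more abundant of the pair, at 6.65 CPM per kb in sgControl and 9.98 in sgNDUFS4 against 2.41 and 1.84 for Mpc2. Mpc1 counts are uncertain in part: 29.6% of the 50-base stretches of its longest transcript also occur in transcripts of other genes, mostly the pseudogene Mpc1-ps, and it overlaps an antisense gene that libraries without strand cannot separate.

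The subunits of the pyruvate dehydrogenase complex changed little. Of 5 tested, 1 was called higher and 1 lower, and all 5 log2 fold changes lay between -0.12 and 0.11. Pdha1, the catalytic subunit that the kinases phosphorylate (chromosome X, 160122209 to 160138413), was at 179.2, 173.8 and 174.0 CPM in sgControl and at 186.7, 186.6 and 188.1 CPM in sgNDUFS4. It rose by 0.09 on the log2 scale (limma adjusted p = 0.043), but over the 17 alternative fits its adjusted p ran from 0.031 to 0.53 and it was called in 7. The call was lost with edgeR, DESeq2 and TMM scaling, without the mean-variance trend, and without any 1 library other than sgControl replicate 1. Its exons overlap Map3k15 on the other strand over 16.1% of their length, and Map3k15 rose by 0.18 (limma adjusted p = 0.030). Pdhb, the partner of Pdha1 in the dehydrogenase component, was at 125.3, 131.2 and 130.4 CPM in sgControl and at 124.6, 120.3 and 132.2 CPM in sgNDUFS4, with a 95% confidence interval of the log2 fold change from -0.13 to 0.05. When each gene was centred on its 50 nearest tested neighbours, Pdhb was called lower, at -0.14 (limma adjusted p = 0.014, the lowest of 17 alternatives, whose highest was 0.93).

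Dlat, the acetyltransferase of the complex, was at 169.7, 171.3 and 166.9 CPM in sgControl and at 184.7, 172.2 and 184.7 CPM in sgNDUFS4. The groups did not overlap, and the log2 fold change of 0.09 missed the threshold (limma adjusted p = 0.055, and from 0.023 to 0.61 over 17 alternatives). It passed without sgNDUFS4 replicate 2, at 0.13 (adjusted p = 0.023). Dld, the dihydrolipoamide dehydrogenase that several 2-oxoacid dehydrogenases share, was at 218.0, 223.5 and 231.1 CPM in sgControl and at 202.2, 211.9 and 203.5 CPM in sgNDUFS4. It fell by 0.12 on the log2 scale (limma adjusted p = 0.0076). Each sgNDUFS4 library was below each sgControl library for Dld, and the call was lost after centring on neighbours (adjusted p = 0.23) and without the mean-variance trend (adjusted p = 0.076, with 2.2e-05 to 0.23 over 17 alternatives). Pdhx, the subunit that binds Dld to the complex, had a mean of 50.8 ± 3.86 CPM in sgControl and 54.7 ± 1.30 CPM in sgNDUFS4 (SD, n = 3 each), with a 95% confidence interval of the log2 fold change from -0.02 to 0.24.

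Among the kinases Pdk3 and Pdk1 changed in opposite directions, which brought their mRNA levels closer together. Pdk3 (ENSMUSG00000035232.8, chromosome X, 93764607 to 93832201) was at 65.3, 72.9 and 72.7 CPM in sgControl and at 30.2, 27.4 and 33.1 CPM in sgNDUFS4. The highest sgNDUFS4 library was well below the lowest sgControl library, and the log2 fold change was -1.21 (SE 0.0706, limma adjusted p = 1.7e-13), the only one of at least 1 in size among the 34 genes. Pdk1 (ENSMUSG00000006494.11, chromosome 2, 71873224 to 71903858), a kinase known as a target of hypoxia-inducible factor 1, was at 24.3, 21.9 and 21.3 CPM in sgControl and at 28.9, 29.0 and 28.9 CPM in sgNDUFS4. It rose by 0.36 on the log2 scale (SE 0.0819, limma adjusted p = 0.00069), with no overlap. The log2 ratio of Pdk3 to Pdk1 was 1.62 ± 0.189 in sgControl and 0.06 ± 0.134 in sgNDUFS4 (SD, n = 3 each). Pdk2 was low, at 1.59, 1.31 and 0.808 CPM in sgControl and at 1.67, 1.25 and 3.31 CPM in sgNDUFS4, from 18 to 86 reads a library. Its groups overlapped, and the 95% confidence interval of its log2 fold change ran from -0.08 to 1.11. Pdk4, the kinase best known from fasting muscle and liver, had 0, 0 and 4 reads in sgControl and 0, 6 and 1 reads in sgNDUFS4 and was not tested.

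Per kb of annotated exon, Pdk3 made up 89.2% ± 1.49 of kinase mRNA in sgControl and 72.8% ± 0.872 in sgNDUFS4, and Pdk1 made up 9.44% ± 1.13 and 23.0% ± 1.99 (SD, n = 3 each). The kinase sum was 30.8 ± 1.43 CPM per kb in sgControl and 16.2 ± 1.41 CPM per kb in sgNDUFS4 (SD, n = 3 each). Each sgNDUFS4 library had a lower kinase sum than each sgControl library. These shares use exon lengths of GENCODE M21, and the annotation the authors counted on is not given in the sources used here.

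**Figure D3:**
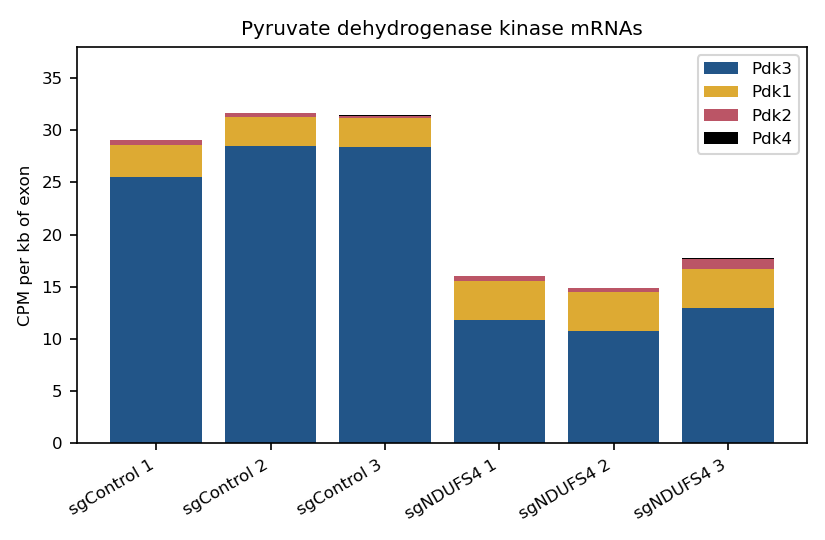
Stacked bars of CPM per kb of exon for Pdk3, Pdk1, Pdk2 and Pdk4 in each library. The bars reach between 29.1 and 31.7 in sgControl and between 14.9 and 17.7 in sgNDUFS4, and the Pdk3 part is shorter and the Pdk1 part taller in every sgNDUFS4 bar.

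None of the 3 phosphatase genes passed. Pdp1, a calcium-stimulated catalytic subunit, was at 4.71 ± 0.690 and 5.38 ± 0.930 CPM, Pdp2, the other catalytic subunit, at 13.4 ± 1.80 and 12.8 ± 1.46 CPM, and the regulatory subunit Pdpr at 13.2 ± 0.671 and 14.97 ± 1.75 CPM in sgControl and sgNDUFS4 (SD, n = 3 each). The 95% confidence intervals of their log2 fold changes ran from -0.19 to 0.53, from -0.31 to 0.19 and from -0.05 to 0.40.

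Start regions are shown for Pdk3 and Pdk1, the kinase pair with opposite changes. Also shown are those of Cs, the most abundant gene with a called change of at least 0.3, and of Mpc1, the largest rise. All start regions come from RefSeq (GRCm38.p6), which gave a window for 32 of the 35 genes (43 windows, some genes having several starts). Each is printed from up to 250 bases before the start, shortened so that at most 5 of its bases lie in an exon of GENCODE M21. Capitals mark ACGTG, a form of the core of the hypoxia response element, whose first base can be A or G.
Pdk3, chrX:93832197-93832400, minus strand: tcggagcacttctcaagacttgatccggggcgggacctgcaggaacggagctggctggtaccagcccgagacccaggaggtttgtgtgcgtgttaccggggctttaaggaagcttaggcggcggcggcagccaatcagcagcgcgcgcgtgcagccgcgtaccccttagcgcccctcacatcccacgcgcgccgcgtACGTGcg
Pdk1, chr2:71872974-71873223, plus strand: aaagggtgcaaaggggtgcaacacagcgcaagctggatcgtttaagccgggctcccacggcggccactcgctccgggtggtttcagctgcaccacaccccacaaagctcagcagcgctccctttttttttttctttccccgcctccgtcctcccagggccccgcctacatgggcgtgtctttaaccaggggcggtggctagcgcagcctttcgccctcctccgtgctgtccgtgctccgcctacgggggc
Cs, chr10:128337477-128337726, plus strand: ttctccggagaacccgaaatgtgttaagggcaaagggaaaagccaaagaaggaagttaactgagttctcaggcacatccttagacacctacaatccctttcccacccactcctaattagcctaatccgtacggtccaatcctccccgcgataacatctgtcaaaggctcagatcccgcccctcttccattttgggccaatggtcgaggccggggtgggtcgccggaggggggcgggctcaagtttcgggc
Mpc1, chr17:8283537-8283766, plus strand: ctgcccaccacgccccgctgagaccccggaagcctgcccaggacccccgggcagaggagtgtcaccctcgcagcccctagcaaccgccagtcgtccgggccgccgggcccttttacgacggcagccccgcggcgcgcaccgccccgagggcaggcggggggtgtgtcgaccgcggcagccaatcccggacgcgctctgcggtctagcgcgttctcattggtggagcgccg
The printed stretches of Pdk3, Pdk1, Cs and Mpc1 hold 24, 19, 13 and 30 CpG dinucleotides. Over the 250 bases before the start, searched on both strands, ACGTG was found for 9 of the 32 genes (Idh3g, Me1, Ogdh, Pcx, Pdhb, Pdk2, Pdk3, Pdp2 and Pdpr, for Me1 in the window of its second start). By window it was in 14 of the 43, or 32.6%, against 16.6% of the 32851 windows of all genes, but 6 of the 14 are windows of Ogdh, some of which overlap. ACGTG contains a CpG, and the 43 windows had a median of 16 CpG and 61.2% GC, against 6 and 52.4% over all windows. Whether this accounts for the share was not tested. The E-box CACGTG, which contains ACGTG, was in 7 of the 43 windows (16.3%) and in 6.02% of all windows. Those 7 belong to Ogdh (3 of them), Pcx, Pdk2, Pdp2 and Pdpr. Of the genes shown, Pdk3, which fell, had ACGTG, and Pdk1, which rose, did not have these letters in either of its windows. The form GCGTG was not searched for. It can be read in the printed stretches of Pdk1 and Pdk3 and, on the other strand, in that of Mpc1. The antioxidant response element of NRF2, TGACNNNGC, was found in 4 of the 43 windows (Dlst, Idh3g, Mpc1 and Sucla2), or 9.30%, and in 10.2% of all windows. Its letters were not in either window of Me1, and in Mpc1 they were in the window of the second start, which is not printed. The element TCAAGGTCA of estrogen-related receptors and the palindromic element of NRF1 were in none of the 43 windows and in 0.387% and 0.782% of all windows. A match is a description of the letters and no sign that a factor binds.

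Pdk3 and Idh3g shared a property that the choice of genes did not use. Both lie on chromosome X in stretches where most genes were lower in sgNDUFS4. Of the 50 tested genes nearest to Pdk3, 47 had a log2 fold change below 0, with a median of -0.97, and of the 50 nearest to Idh3g 48 did, with a median of -0.88. Against its own neighbours Pdk3 was still lower, by 0.26 on the log2 scale (limma on values centred on the neighbours, adjusted p = 0.0038), whereas Idh3g was higher than its neighbours by 0.20 (adjusted p = 0.0021). Pdha1, the third gene of the group on chromosome X, lies in another stretch, where 9 of its 50 neighbours were below 0 and the median was 0.17. It was at -0.10 against its neighbours (adjusted p = 0.057). For the 31 autosomal genes tested the neighbours' median lay between -0.16 and 0.20. Me1, Cs, Aco1, Mpc1, Mpc2 and Pdk1 kept their direction and their call after centring, at -0.51, -0.29, -0.42, 0.48, -0.42 and 0.27. What lowered the stretch of chromosome X was not tested.

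**Figure D4:**
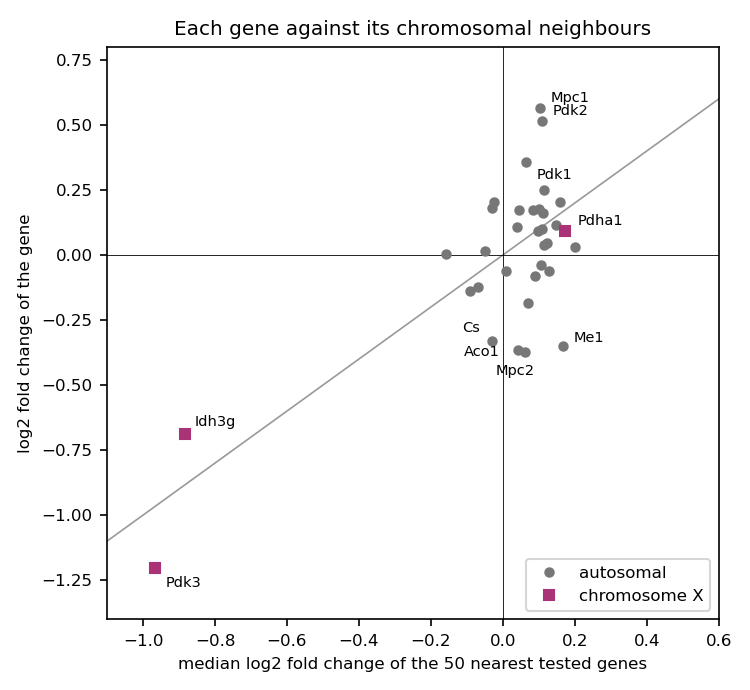
Log2 fold change of each of the 34 genes (vertical axis) against the median log2 fold change of its 50 nearest tested genes (horizontal axis), with squares for chromosome X and a grey line where both are equal. Pdk3 and Idh3g lie at -0.97 and -0.88 on the horizontal axis, Pdk3 below the line and Idh3g above it, while the 31 autosomal genes lie between -0.16 and 0.20 on that axis.

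From citrate synthesis to isocitrate oxidation all 7 genes passed, 3 higher and 4 lower. The share called in the small groups by role ranged from 0% to 100%, against 52.0% of all genes tested. Cs, the citrate synthase that opens the cycle (ENSMUSG00000005683.8, chromosome 10, 128337734 to 128362479), was at 495.6, 484.4 and 479.0 CPM in sgControl and at 387.3, 385.3 and 388.2 CPM in sgNDUFS4. The groups did not overlap, and the log2 fold change was -0.33 (SE 0.0301, limma adjusted p = 1.1e-09). Aco1, the cytosolic aconitase that also acts as iron regulatory protein 1 (ENSMUSG00000028405.9, chromosome 4, 40143081 to 40198338), was at 83.0, 88.4 and 88.0 CPM in sgControl and at 70.1, 66.7 and 64.2 CPM in sgNDUFS4. It fell by 0.37 on the log2 scale (SE 0.0524, limma adjusted p = 2e-06), without overlap.

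The NADP-dependent isocitrate dehydrogenases went in opposite directions. Idh2, the mitochondrial form (chromosome 7, 80094846 to 80115392), was at 409.1, 404.8 and 435.8 CPM in sgControl and at 353.1, 356.6 and 389.9 CPM in sgNDUFS4 (log2 fold change -0.19, SE 0.0376, limma adjusted p = 0.00019). Idh1, the cytosolic and peroxisomal form (chromosome 1, 65158616 to 65186500), was at 58.3, 63.2 and 61.9 CPM in sgControl and at 69.0, 66.9 and 75.8 CPM in sgNDUFS4, a rise of 0.20 (SE 0.0577, limma adjusted p = 0.0044, and from 0.0029 to 0.051 over 17 alternatives, the highest with DESeq2). Neither gene had overlapping groups, and the log2 ratio of Idh2 to Idh1 went from 2.76 ± 0.0766 in sgControl to 2.37 ± 0.0316 in sgNDUFS4 (SD, n = 3 each). Idh2 was the most abundant of the 35 genes per kb of exon in both groups, at 161.0 and 141.6 CPM per kb.

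The NAD-dependent isocitrate dehydrogenase is built from the catalytic subunit Idh3a and the regulatory subunits Idh3b and Idh3g. Idh3g (ENSMUSG00000002010.17, chromosome X, 73778963 to 73786897) was at 165.6, 172.2 and 185.5 CPM in sgControl and at 106.7, 109.0 and 107.9 CPM in sgNDUFS4 (log2 fold change -0.69, SE 0.0444, limma adjusted p = 1.2e-12). All 3 sgNDUFS4 libraries were far below the sgControl libraries, in the stretch of chromosome X described above. Idh3a was at 254.2, 266.9 and 267.0 CPM in sgControl and at 279.1, 278.7 and 286.2 CPM in sgNDUFS4, a rise of 0.10 (limma adjusted p = 0.019, and from 0.0092 to 0.82 over 17 alternatives). The Idh3a call was lost with TMM scaling, edgeR, DESeq2 and centring on neighbours, without the mean-variance trend, and without sgControl replicate 1 (adjusted p = 0.10) or sgNDUFS4 replicate 3 (adjusted p = 0.073). Idh3b was at 123.0, 106.7 and 118.1 CPM in sgControl and at 134.6, 131.0 and 128.0 CPM in sgNDUFS4, a rise of 0.18 (limma adjusted p = 0.0031, and from 0.0012 to 0.065 over 17 alternatives). The Idh3b call was lost with DESeq2 (adjusted p = 0.057) and without the mean-variance trend (adjusted p = 0.065). The log2 ratio of Idh3g to Idh3a was -0.59 ± 0.0581 in sgControl and -1.38 ± 0.0268 in sgNDUFS4 (SD, n = 3 each).

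From 2-oxoglutarate to malate, 4 of 6 genes rose and 1 fell. Ogdh, the dehydrogenase component of the 2-oxoglutarate dehydrogenase complex (chromosome 11, 6291633 to 6356642), was at 543.6, 536.3 and 574.8 CPM in sgControl and at 606.5, 623.2 and 639.6 CPM in sgNDUFS4, a rise of 0.18 (SE 0.0316, limma adjusted p = 4.4e-05). Dlst, the succinyltransferase of the same complex (chromosome 12, 85110833 to 85134845), was at 251.2, 234.1 and 242.1 CPM in sgControl and at 221.7, 211.1 and 227.2 CPM in sgNDUFS4. It fell by 0.14 on the log2 scale (SE 0.0383, limma adjusted p = 0.0035), so that Ogdh was higher while Dlst and the shared Dld were lower. The Dlst call was lost after centring on neighbours (adjusted p = 0.47) and without the mean-variance trend (adjusted p = 0.071, with 4.1e-06 to 0.47 over 17 alternatives).

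All 3 genes of succinyl-CoA synthetase, the step of the cycle that makes a nucleoside triphosphate, rose. Suclg1, the alpha subunit common to both forms of the enzyme, was at 182.9, 191.7 and 201.7 CPM in sgControl and at 206.7, 217.6 and 220.0 CPM in sgNDUFS4 (log2 fold change 0.16, limma adjusted p = 0.0017). Sucla2, the beta subunit of the ATP-forming enzyme, was at 107.1, 103.8 and 104.0 CPM in sgControl and at 118.8, 121.8 and 122.6 CPM in sgNDUFS4 (log2 fold change 0.21, limma adjusted p = 0.00029). The groups did not overlap in either gene, and both calls were lost after centring on neighbours (adjusted p = 0.28 for Suclg1 and 0.21 for Sucla2, the highest of 17 alternatives in both cases, against lowest values of 0.00034 and 0.00021). For Suclg1 it was also lost without the mean-variance trend (adjusted p = 0.057). Suclg2, the beta subunit of the GTP-forming enzyme (chromosome 6, 95473009 to 95718800), was at 134.1, 126.2 and 141.1 CPM in sgControl and at 156.0, 160.8 and 159.9 CPM in sgNDUFS4, a rise of 0.25 (SE 0.0437, limma adjusted p = 3.3e-05). Its rise passed in all 17 alternatives, although 21.8% of the 50-base stretches of its longest transcript also occur in a pseudogene. The log2 ratio of Suclg2 to Sucla2 was 0.35 ± 0.0819 in sgControl and 0.39 ± 0.00917 in sgNDUFS4 (SD, n = 3 each), with overlapping groups.

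Fh1, the fumarase that makes malate, was at 167.9, 169.5 and 181.1 CPM in sgControl and at 169.7, 169.8 and 157.0 CPM in sgNDUFS4. Its groups overlapped, and its log2 fold change of -0.06 did not pass (limma adjusted p = 0.23). With TMM scaling, edgeR and DESeq2 it was at -0.12 and was called lower, with adjusted p-values of 0.023, 0.020 and 0.026 in turn, out of 0.020 to 0.68 over 17 alternatives.

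Of 5 genes that exchange carbon between the cycle and pyruvate or phosphoenolpyruvate, only Me1 passed. Me1, the cytosolic malic enzyme, which makes NADPH and is a known NRF2 target (ENSMUSG00000032418.15, chromosome 9, 86581371 to 86695953), was at 113.8, 119.0 and 120.4 CPM in sgControl and at 93.7, 92.3 and 90.6 CPM in sgNDUFS4. It fell by 0.35 on the log2 scale (SE 0.0451, limma adjusted p = 3.9e-07), without overlap. Its 50-base stretches occur in part (32.8%) in pseudogenes, so its counts are uncertain to that extent. Me2, the mitochondrial NAD-dependent form, had a 95% confidence interval of the log2 fold change from -0.04 to 0.14, and the low mitochondrial Me3 (6.50 ± 1.24 and 6.07 ± 0.596 CPM, SD, n = 3 each) one from -0.41 to 0.25. The log2 ratio of Me1 to Me2 was -0.11 ± 0.0212 in sgControl and -0.50 ± 0.0326 in sgNDUFS4 (SD, n = 3 each). Pcx, the pyruvate carboxylase that makes oxaloacetate, was at 37.1 ± 1.09 and 37.6 ± 1.83 CPM (SD, n = 3 each), with a 95% confidence interval from -0.12 to 0.16. Pck2, the mitochondrial phosphoenolpyruvate carboxykinase, was at 60.1, 59.0 and 63.0 CPM in sgControl and at 64.8, 64.7 and 68.1 CPM in sgNDUFS4. Its groups did not overlap, and its log2 fold change of 0.12 did not pass (limma adjusted p = 0.076, and from 0.046 to 0.80 over 17 alternatives, the lowest without sgControl replicate 3).

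None of the 3 remaining genes passed. Glud1, the glutamate dehydrogenase that makes 2-oxoglutarate, was at 192.7 ± 9.86 and 198.1 ± 4.13 CPM, and Gpt2, the mitochondrial alanine transaminase, at 33.6 ± 0.636 and 34.4 ± 2.56 CPM in sgControl and sgNDUFS4 (SD, n = 3 each). D2hgdh, which oxidises D-2-hydroxyglutarate, was at 9.53 ± 0.894 and 9.54 ± 0.710 CPM (SD, n = 3 each). The 95% confidence intervals of their log2 fold changes ran from -0.04 to 0.12, from -0.12 to 0.18 and from -0.26 to 0.27.

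Of 10 within-library ratios of partner subunits or isoforms that were compared, 9 are reported. They restate the values above in a form that does not depend on library scaling. The groups did not overlap in 5 of them, which were Idh2 to Idh1, Idh3g to Idh3a, Me1 to Me2, Pdk3 to Pdk1 and Mpc2 to Mpc1. In all of these but Me1 to Me2, both genes had already separated in opposite directions. Non-overlap of those ratios was thereby fixed and adds no evidence. The share of other gene pairs without overlap was not computed. Each of the 5 ratios had an exact two-sided permutation p of 0.10, the smallest that 3 against 3 libraries allow. The adjusted p was 0.17 over the 10 pairs. The other pairs, Suclg2 to Sucla2, Pdk1 to Pdk2, Pdha1 to Pdhb and Pcx to Pck2, overlapped, with exact permutation p-values of 0.40, 0.90, 0.20 and 0.20. For Pdha1 to Pdhb the log2 ratio was 0.44 ± 0.0607 in sgControl and 0.57 ± 0.0623 in sgNDUFS4 (SD, n = 3 each).

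**Figure D5:**
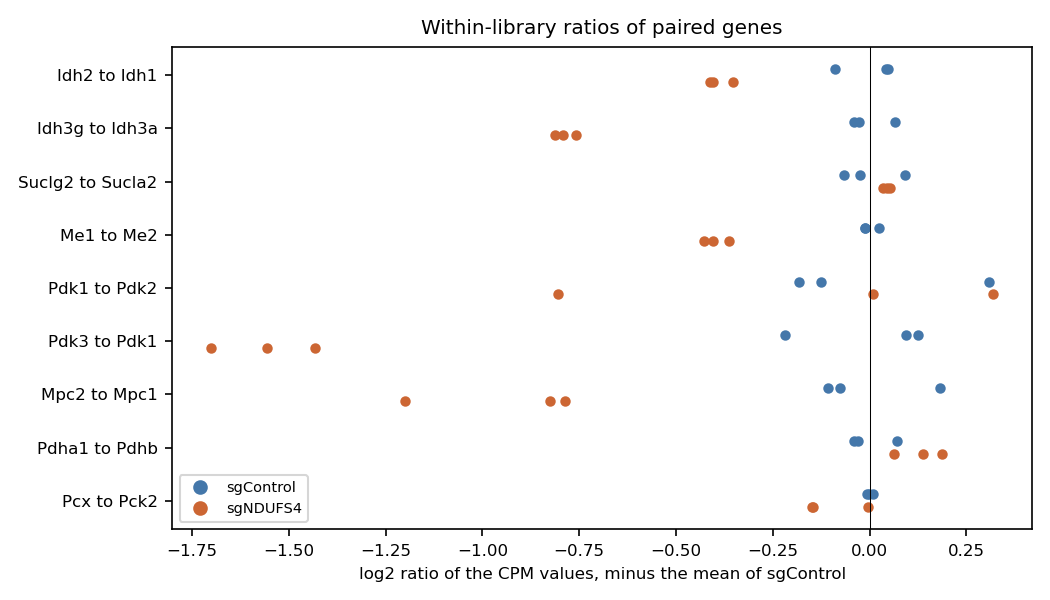
Log2 ratio of CPM + 0.5 of each of 9 gene pairs in each library, minus the sgControl mean of the pair, for sgControl (blue) and sgNDUFS4 (orange). The orange points lie left of all blue points for 5 pairs, farthest for Pdk3 to Pdk1 and Mpc2 to Mpc1.

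Of 63 further genes of neighbouring steps, 61 could be tested, of which 19 rose and 11 fell. These calls are 49.2% of the genes, against 52.0% of all genes tested, and the balance turned to 14 higher and 16 lower with TMM scaling, edgeR and DESeq2 alike. The median of their log2 fold changes was 0.05. In the rest of the cycle 2 of 11 rose and 1 fell. Sdha, the flavoprotein of succinate dehydrogenase, rose from 393.6 ± 4.82 to 517.1 ± 8.56 CPM and Sdhc, a membrane anchor of the same enzyme, from 110.4 ± 8.79 to 121.6 ± 2.95 CPM (SD, n = 3 each). The groups of Sdhc overlapped (103.5 to 120.3 CPM in sgControl and 118.2 to 123.6 CPM in sgNDUFS4). Its call was lost with TMM scaling (adjusted p = 0.18), edgeR (0.19), DESeq2 (0.25) and centring on neighbours (0.18). It was also lost without sgControl replicate 1 or 2 or sgNDUFS4 replicate 1 or 3 (adjusted p from 0.068 to 0.14). The neighbours of Sdha on chromosome 13 had a median of 0.48, and against them Sdha was at -0.07 (adjusted p = 0.11). Ogdhl, a paralog of Ogdh, fell from 5.95 ± 0.467 to 1.81 ± 0.446 CPM (SD, n = 3 each).

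Lipoate and flavin supply the cofactors of the 2-oxoacid dehydrogenases, and of 9 such genes 1 rose and 2 fell. Mcat and Mecr, of the mitochondrial fatty acid synthesis that makes the lipoate precursor, fell by 0.57 and 0.28 on the log2 scale, and Flad1, which makes FAD, rose by 0.23. Flad1 lost its call with TMM scaling (adjusted p = 0.083), edgeR (0.082) and DESeq2 (0.12). It also lost the call without sgControl replicate 1 or 2 or sgNDUFS4 replicate 1. After centring on neighbours both Flad1, at -0.11 (adjusted p = 0.28), and Mecr (adjusted p = 0.27) lost their calls. Lias, the lipoate synthase, was at 42.3 ± 0.648 and 42.5 ± 2.05 CPM (SD, n = 3 each). Among 7 genes of related complexes 2 rose and 1 fell. Those that rose were Bckdha of the branched-chain 2-oxoacid dehydrogenase and Ppm1k, the phosphatase that activates it, by 0.48 and 0.65 on the log2 scale, while Gcsh of the glycine cleavage system fell by 0.31, a call lost after centring on neighbours (adjusted p = 0.053). Bckdk, the kinase of the branched-chain complex, was at 68.4 ± 2.50 and 63.3 ± 2.19 CPM (SD, n = 3 each). It did not pass (limma adjusted p = 0.090) but was called lower with TMM scaling (adjusted p = 0.012).

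Of 13 genes of glutamine and glutamate metabolism 4 rose and 4 fell. Prodh, the proline dehydrogenase, rose by 0.54 on the log2 scale. Glul, the glutamine synthetase, fell from 119.6 ± 5.54 to 81.4 ± 1.92 CPM, and Gpt, the cytosolic counterpart of Gpt2, from 17.8 ± 2.82 to 6.08 ± 1.26 CPM (SD, n = 3 each). Got2, the mitochondrial aspartate transaminase, was at 0.03 on the log2 scale (limma adjusted p = 0.29). Of 5 tested genes of pyruvate and lactate 4 were called higher and none lower. They were the lactate dehydrogenases Ldha and Ldhb, by 0.20 and 0.40, and the monocarboxylate carriers Slc16a1 and Slc16a3, by 0.22 and 0.11 on the log2 scale. Slc16a3, named after its values were seen, was at 144.7 to 155.7 CPM in sgControl and 155.6 to 167.5 CPM in sgNDUFS4, so its groups overlapped. Its call (limma adjusted p = 0.037) was lost with TMM scaling (0.36), edgeR (0.37), DESeq2 (0.42) and centring on neighbours, where it was at -0.10 (adjusted p = 0.091). Against its neighbours Slc16a1 was at -0.11 (adjusted p = 0.079). Pkm, the pyruvate kinase, was at 0.04 (limma adjusted p = 0.13).

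Of 4 genes of citrate export and acetyl-CoA, the citrate carrier Slc25a1 rose by 0.54 on the log2 scale, and the acetyl-CoA synthetases Acss1 and Acss2 fell by 0.75 and 0.37, for Acss2 with a call lost without sgNDUFS4 replicate 1 (adjusted p = 0.079). Acly, which cleaves exported citrate, was at 565.9 ± 7.63 and 581.0 ± 11.1 CPM (SD, n = 3 each). In the propionyl-CoA route into succinyl-CoA 2 of 6 genes rose, Pcca by 0.42 and Mut, the methylmalonyl-CoA mutase, by 0.45, while Pccb was at 0.11 (limma adjusted p = 0.10). Of 6 genes of 2-hydroxyglutarate and redox partners 3 rose. Nnt, which couples NADH to NADPH in the inner membrane, rose from 71.7 ± 3.67 to 100.5 ± 6.08 CPM (SD, n = 3 each). The match by symbol gave Nnt no position, so it was not centred on neighbours, and whether it moved with them was not tested. The mitochondrial deacetylase Sirt3 rose by 0.30 on the log2 scale (limma adjusted p = 0.049). That call was lost with TMM scaling (adjusted p = 0.11), edgeR (0.11), DESeq2 (0.15) and centring on neighbours (0.11). It was also lost without any 1 of the 6 libraries. The NAD kinase Nadk2 was at 0.08 (limma adjusted p = 0.50).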

How the data were processed

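CPM values per gene and library were deposited by the authors in 1 table. Per the submitters' processing notes, HISAT2 and GRCm38 were used; for the counting tool, annotation and filters the sources used here give no name. RNA was extracted with TRIzol and sequenced paired-end without strand, per the labels' protocols. Dividing a library's values by its smallest value above 0 gave whole numbers (99.98% to 100% of values above 0, tolerance 0.01), so reads were recovered; 3 reads are 0.116 to 0.149 CPM, for counting error only.

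The test was limma 3.58.1 (R 4.3.3) on log2(CPM + 0.5), eBayes with trend, two-sided, over the 11063 genes averaging 1 CPM or more, adjusted by Benjamini-Hochberg over all of them at 0.05. This log scale understates changes of low genes. On the recovered reads edgeR 4.0.16 called 5583 genes and DESeq2 1.42.0 called 5370. Positions and exon lengths came from GENCODE M21 (GRCm38), matched by symbol. The scripts were tested on simulated data. The 17 alternatives changed the pseudocount, the filter, the scaling, the trend or the tool, added a replicate block, centred each gene on 50 neighbours or left out 1 library. All 35 genes are named; other lists contribute up to 3 genes with the smallest p-value and 1 that did not pass, apart from a few that are not reported here. The genes and lists were chosen with earlier results of these data known.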

Additional observations from a re-analysis of the deposited data

How the results depend on the processing

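Of the 19 genes of the group that were called, 11 were called in all 17 alternatives (Mpc1, Mpc2, Pdk1, Pdk3, Me1, Cs, Aco1, Idh2, Idh3g, Ogdh and Suclg2), and 10 of these in the same direction, Idh3g being the exception. The count of genes of the group called higher, 10, was 6 with DESeq2 and 6 without the mean-variance trend. The median log2 fold change of the 34 genes tested, 0.04, was -0.015 with TMM scaling, -0.017 with edgeR and -0.017 with DESeq2, 0.023 with quantile normalization and -0.0044 with centring on neighbours. With 1 library left out, it lay between 0.037 and 0.066. Among the named genes called with or without it, centring on neighbours turned the sign of Pdha1 to -0.097, Idh3g to 0.20, Flad1 to -0.11, Sdha to -0.072, Got2 to -0.18, Pkm to -0.083, Slc16a1 to -0.11 and Acly to -0.18. It also turned Slc16a3 to -0.10 and Map3k15 to -0.0080. Of the genes of the group called in neither fit, Pck2, Me2, Glud1 and Gpt2 turned too. The cause was not tested.

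Replicate numbers were not used to pair the samples in the main fit. Deviations of same-numbered libraries correlated at 0.056, 0.012 and 0.097 over genes. Every library but sgNDUFS4 replicate 2 correlated best with its own number, a hint of pairing from the data only. With a replicate block 11 genes of the group were higher and 9 lower, the added call being Dlat at an adjusted p of 0.048, and for the 10 ratios the smallest possible p was 0.25. Depth limits Pdk4 and Pdk2.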

Other observations

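Shares of subunits and isoforms per kb of annotated exon can also be given for enzymes other than the kinases, as a description. Of Idh3 mRNA, Idh3g made up 43.0% ± 1.25 in sgControl and 29.9% ± 0.347 in sgNDUFS4, and Idh3b 22.6% ± 1.67 and 28.7% ± 0.714 (SD, n = 3 each). The Idh3 sum was 150.2 ± 4.83 CPM per kb in sgControl and 133.7 ± 0.141 in sgNDUFS4. For the pyruvate carrier the sum was 9.05 ± 0.180 and 11.8 ± 0.994 CPM per kb, and Mpc2 made up 26.6% ± 2.24 and 15.7% ± 2.08 of it. Cytosolic Me1 made up 63.1% ± 0.425 of malic enzyme mRNA in sgControl and 56.5% ± 0.492 in sgNDUFS4. Suclg2 made up 52.3% ± 1.42 and 53.1% ± 0.159 of the beta subunits of succinyl-CoA synthetase. These shares divide by all annotated exon bases of a gene, 3848 for Me1 and 7252 for Me2. The longest transcripts of Me1 and Me2 have 3292 and 3366 bases, and in sgControl their means were 117.7 and 126.7 CPM. Which of the 2 is the larger therefore depends on the length used. The same is true of Suclg2 and Sucla2 and of Idh3g and Idh3a.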
